A study of Mus musculus with 16 samples.

Results

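Cytochrome P450 genes were compared in kidney RNA of 5 wild-type male littermates named W1, W2, W3, W4 and W5, whose background mixed C57BL/6 and 129Sv. A gene was included when a probe of the array had a single symbol made of Cyp, a family number, a subfamily letter and a gene number, leaving out Cyp4a14 and Cyp51. This gave 24 genes on 25 probes in 17 subfamilies. Of these, 16 genes on 17 probes were measured on 3 or 4 arrays of every mouse W1 to W4 and were tested, out of 8005 named genes tested. The 5 mice shared wild-type status, sex, age (88 ± 2 days) and time of death, between 8 and 10 in the morning. Right kidneys were used throughout, and the labels name no treatment. Kidneys W1 to W4 were each hybridised against W5 on 4 two-colour arrays, 2 with the mouse in channel 1 and 2 with W5 there, so 16 arrays were measured in all. Arrays of a mouse repeat the hybridisation for the same single kidney, and W5 is a single animal. P-values therefore concern the RNA extracts of these kidneys, not a population of mice.

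P450 enzymes are haem proteins that insert an oxygen atom into their substrates, using electrons passed on by cytochrome P450 reductase in the endoplasmic reticulum or by ferredoxin in mitochondria. Families Cyp1 to Cyp4 handle drugs, plant compounds, fatty acids and eicosanoids, while most other families make or break down steroids, bile acids, vitamin D and retinoic acid. In the kidney they are known mainly from the proximal tubule, where fatty acid and vitamin D hydroxylation take place. The Cyp2d genes lie next to each other on mouse chromosome 15, and Cyp2d9 is known in mouse liver as the male-predominant testosterone 16-alpha hydroxylase.

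Values are log2 ratios of a mouse against W5, so W5 lies at 0, with the standard error (SE) of the limma fit over n = 4 arrays per mouse unless fewer are named. The sign is the one deposited for arrays with the mouse in channel 1, and the sign was turned where W5 was in channel 1. The sources used here do not state which channel is the numerator. Whether a negative value means more or less RNA than in W5 is therefore not settled, and only sides and sizes are compared. The range of a probe is its span over the 5 kidneys, W5 included. Probe intensities were not used here, so ratios show neither the level of a gene nor whether defining kidney markers are present. Each array had values for 80.2% to 91.1% of its 20205 probes. In a whole kidney, fewer cells of a type and less RNA per cell cannot be told apart.

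Because 3 Cyp2d genes were called and had like profiles, their RefSeq promoter windows in GRCm38.p6 are shown, 250 bases before to 50 after the annotated start, 5′ to 3′ on the gene's strand. Cyp2d9 is at chr15:82452127-82452426 on the plus strand, Cyp2d40 at chr15:82764073-82764372 on the minus strand and Cyp2d26 at chr15:82794196-82794495 on the minus strand. Capitals mark matches, on either strand, to TATAAA (the TATA box), TTCCGG (an ETS core that holds a CpG), AGGTCA (a nuclear receptor hexamer), TTCNNNGAA (a STAT site) and AGAACA (a steroid receptor hexamer). No 2 matches overlap in these windows.
Cyp2d9: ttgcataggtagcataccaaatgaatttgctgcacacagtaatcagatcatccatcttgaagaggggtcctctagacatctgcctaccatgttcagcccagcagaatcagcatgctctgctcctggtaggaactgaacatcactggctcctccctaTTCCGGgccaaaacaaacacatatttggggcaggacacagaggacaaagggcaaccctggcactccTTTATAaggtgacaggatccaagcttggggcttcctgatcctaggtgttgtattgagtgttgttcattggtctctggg
Cyp2d40: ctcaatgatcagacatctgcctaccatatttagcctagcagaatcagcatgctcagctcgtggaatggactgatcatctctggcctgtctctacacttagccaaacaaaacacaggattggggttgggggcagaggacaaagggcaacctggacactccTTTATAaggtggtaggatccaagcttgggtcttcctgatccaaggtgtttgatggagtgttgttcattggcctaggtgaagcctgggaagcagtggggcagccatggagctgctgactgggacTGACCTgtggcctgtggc
Cyp2d26: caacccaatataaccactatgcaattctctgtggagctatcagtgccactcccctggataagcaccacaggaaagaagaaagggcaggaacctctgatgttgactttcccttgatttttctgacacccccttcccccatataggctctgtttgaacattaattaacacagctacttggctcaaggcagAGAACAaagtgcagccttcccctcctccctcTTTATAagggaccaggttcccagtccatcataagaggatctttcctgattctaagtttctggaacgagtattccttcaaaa
Each of the 3 windows holds a TATAAA match, as do 13.6% of 32851 promoter windows of this length. All 3 read TTTATA, the form on the other strand. Counted from the annotated start they lie at -28 to -23 in Cyp2d9, -31 to -26 in Cyp2d26 and -91 to -86 in Cyp2d40. The Cyp2d40 match is thus farther from the start. TTCCGG appears in the Cyp2d9 window (14.9% of all windows), AGGTCA in that of Cyp2d40 (16.3%) and AGAACA in that of Cyp2d26 (19.0%). The AGGTCA match lies after the annotated start, at 32 to 37. TTCNNNGAA, which 8.30% of all windows hold, is not in these 3. The Cyp2d9 and Cyp2d40 windows were identical at 194 of 237 aligned bases (81.9%). Among the other 104 pairs of 15 tested P450 genes with a window, identity ran from 54.7% to 68.6%. Within that span lay Cyp2d26, with 65.9% to Cyp2d9 and 67.8% to Cyp2d40.

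The Cyp2d subfamily differed among the kidneys. All 4 tested probes, for Cyp2d9, Cyp2d40 and Cyp2d26 (2 probes), were called in the 5-kidney F test, at a limma adjusted p under 0.05. In each of them W1 and W4 lay on the negative side, W2 lay close to W5, and W3 lay between. Over all P450 probes 5 of 17 were called, with Cyp26b1 as the fifth, against 4.00% of all 15715 probes. Before adjustment 8 of the 17 had p under 0.05, against 17.9% of all probes. Cyp2d genes share much sequence, so a probe may bind transcripts of more than one of them and the probes are not independent of each other.

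Cyp2d9 on probe 284 had log2 ratios of -0.74, -0.64, -0.93 and -0.73 on the 4 arrays of W1. On the arrays of W4 it had -0.87, -0.42, -0.64 and -0.83, on those of W3 -0.38, -0.26, -0.41 and -0.23, and on those of W2 0.067, 0.065, -0.15 and -0.01. The arrays of W1 and W4 overlapped each other, and neither overlapped those of W2 or W3. W2 and W3 did not overlap either. W4 and W3 were barely apart, reaching -0.4166 and -0.4096. Here and for the genes below, how often arrays stay apart over all probes was not counted. The fitted values were -0.76 ± 0.08 in W1, -0.69 ± 0.08 in W4, -0.32 ± 0.08 in W3 and -0.01 ± 0.08 in W2, a range of 0.76 or 1.69-fold (limma adjusted p = 1.46e-06). W1 and W4 each differed from W5 (adjusted p = 1.27e-05 and 4.57e-05), while W3 did not pass (adjusted p = 0.0757). Its range was as wide as or wider than that of 98.7% of all probes, and its technical SD of 0.12 was low, with 10.4% of probes at or below it.

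Cyp2d26, a gene of the same cluster, was measured by probe 7454 (A) and probe 19707 (B). On probe A the arrays of W1 lay at -0.44, -0.35, -0.42 and -0.67, and the 3 measured arrays of W4 at -0.38, -0.25 and -0.82. Those of W2 lay at 0.19, 0.06, 0.25 and -0.01, and those of W3 at 0.02, -0.12, 0.22 and -0.44. W1 and W4 were thus clear of W2 on every array, and W3 overlapped the rest. Probe B had -0.57, -0.33, -0.69 and -0.29 in W1, 0.13, 0.21, -0.16 and 0.25 in W2, and -0.18, -0.06, -0.06 and -0.23 in W3. In W4 it had -0.59, 0.06, -0.38 and -0.69, so that one array of W4 lay among those of W2. Fitted values were -0.47 ± 0.09 in W1 and -0.45 ± 0.11 in W4 on probe A, and -0.47 ± 0.10 and -0.40 ± 0.10 on probe B. The ranges were 0.59 and 0.58 (adjusted p = 0.00938 and 0.00931), or 1.51-fold and 1.49-fold. Without mouse W1 both calls were lost (adjusted p = 0.165 and 0.161). W4 differed from W5 at an adjusted p of 0.0433 on probe A and 0.0414 on probe B, and these 2 calls were lost in 19 of 27 and 19 of 29 alternative settings. Without W4 replicate 4 the W4 value on probe B was -0.26 (adjusted p = 0.250). For W1 the adjusted p were 0.0201 and 0.0253, lost in 5 of 27 and 7 of 29.

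Cyp2d40, the third gene of the cluster tested, also had W1 and W4 on the negative side, with smaller values, on probe 7290. It lay at -0.09, -0.56, -0.06 and -0.42 on the arrays of W1, and at -0.00, -0.40, -0.43 and -0.46 on those of W4. In W2 it lay at 0.14, -0.20, 0.23 and -0.06, and in W3 at 0.07, -0.23, 0.16 and -0.14. In W1, W2 and W3 the arrays with the mouse in channel 1, which are arrays 1 and 3, lay above the other 2. This channel effect was called as a dye term of 0.16 ± 0.04 (adjusted p = 0.0146) and was part of the fit. With it the fitted values were -0.28 ± 0.07 in W1, -0.32 ± 0.07 in W4, 0.02 in W2 and -0.03 in W3, a range of 0.34 (adjusted p = 0.0208). W4 differed from W5 (adjusted p = 0.0285, lost in 9 of 29 settings), and W1 did not pass (adjusted p = 0.109). The 2 arrays with the fewest values are both of W4 (replicates 3 and 4), and without them the W4 value was -0.20. The 5-kidney call was lost in 5 of 30 settings, among them without the dye term (adjusted p = 0.218) and without W1 replicate 2 (adjusted p = 0.0522).

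Cyp2d12 had values on 12 arrays, with 2 each for W3 and W4, and so stayed outside the main test. On probe 131 it lay at -0.83, -0.76, -1.02 and -0.61 in W1, at -0.92 and -0.60 in W4, at -0.22 and -0.20 in W3, and at -0.07, -0.28, -0.44 and 0.07 in W2. The arrays of W1 and W4 were all farther from W5 than those of W2 and W3. With probes of at least 2 arrays per mouse admitted, its range was 0.80 (limma adjusted p = 0.000423), with 6 of 21 P450 probes called against 3.49% of all 17788. A probe listed with Cyp2d10, Cyp2d11 and Cyp2d22 together, which belongs to no single gene, lay at -0.58 in W1, -0.61 in W4, -0.16 in W3 and -0.07 in W2 (adjusted p = 0.000164). A second probe listed with the same 3 genes lay at -0.69 in W1, -0.39 in W4, -0.13 in W3 and 0.61 in W2 (adjusted p = 0.0222), so W2 left W5 on the positive side there.

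**Figure D1:**
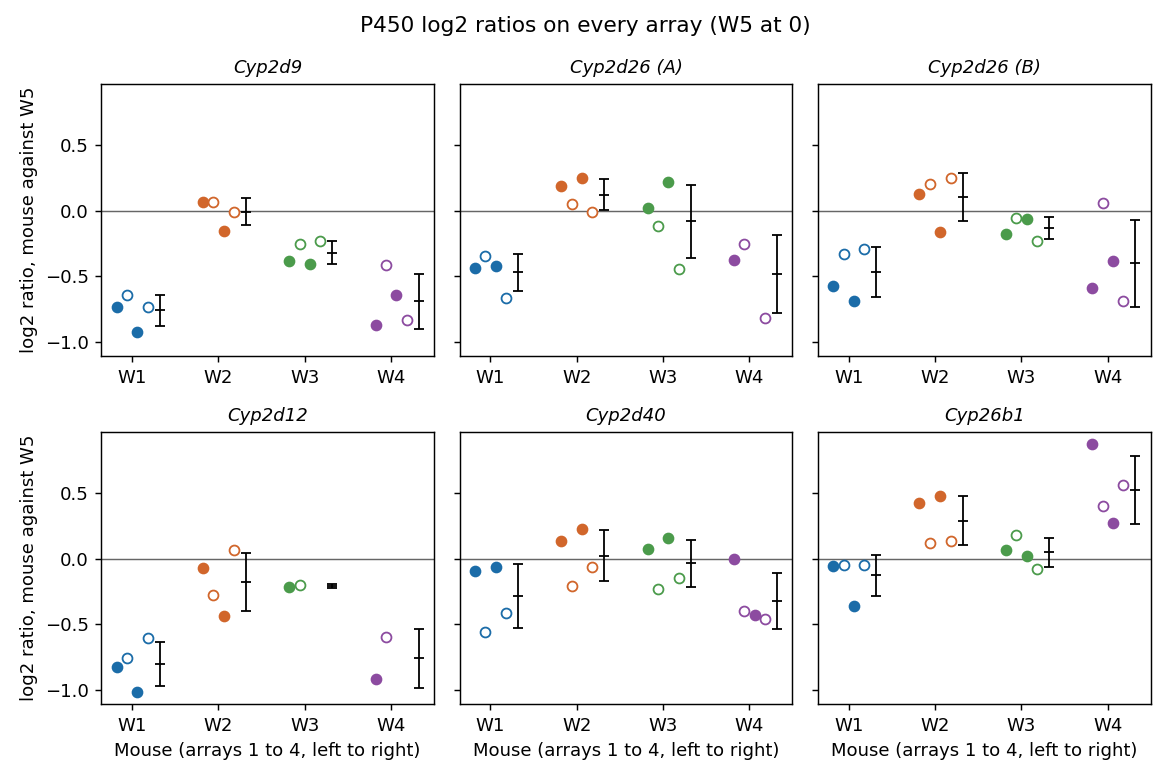
Log2 ratio of each mouse against W5 (y axis) on every array for the called P450 genes and Cyp2d12, with mice W1 to W4 along the x axis. Filled points are arrays with the mouse in channel 1, open points those with W5 there, bars are the mean ± SD of the measured arrays and the line at 0 is W5. For Cyp2d9, arrays of W1 lie between -0.93 and -0.64 and those of W2 between -0.15 and 0.07, while for Cyp26b1 the arrays of W4 lie between 0.27 and 0.88.

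The likeness of the Cyp2d profiles was measured as the cosine of the 4 mouse values. Between the 4 tested probes it ran from 0.965 (Cyp2d9 with Cyp2d26 A) to 0.994 (the 2 Cyp2d26 probes). Among 335 other called genes, those most like Cyp2d9 were Cyp2d26 (0.980), Gadd45b (0.975, a stress gene whose other probe was not called), the organic anion transporter gene Slco4a1 (0.970), Cyp2d40 (0.968) and the water channel gene Aqp2 (0.962). Aqp2, a marker of the collecting duct, lay at -0.36 in W1, -0.54 in W4, -0.13 in W3 and 0.05 in W2. These cosines rest on 4 points that share W5 and are a description only.

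The genes next to the cluster were not called. On the GRCm38.p6 annotation, used for gene order only, 8 protein-coding Cyp2d genes lie together, and the nearest 6 named and tested genes on each side were read, a choice made after the Cyp2d values were seen. None of these 12 genes, on 13 probes, was called by limma (lowest adjusted p = 0.171), against 4.00% of all probes. For so few probes that count is near this share. Their ranges ran from 0.03 to 0.34, and their cosines to Cyp2d9 from -0.946 (Tnfrsf13c) to 0.804 (Ccdc134). Ndufa6, a complex I subunit gene adjacent to the cluster, lay at 0.17 in W4, 0.10 in W3, -0.08 in W1 and -0.10 in W2. Rrp7a on the other side had the widest range, 0.34, with negative values in all 4 mice. Cyb5r3, which reduces cytochrome b5, an electron donor to P450 enzymes, also lies on that side and had a range of 0.19 (adjusted p = 0.522).

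**Figure D2:**
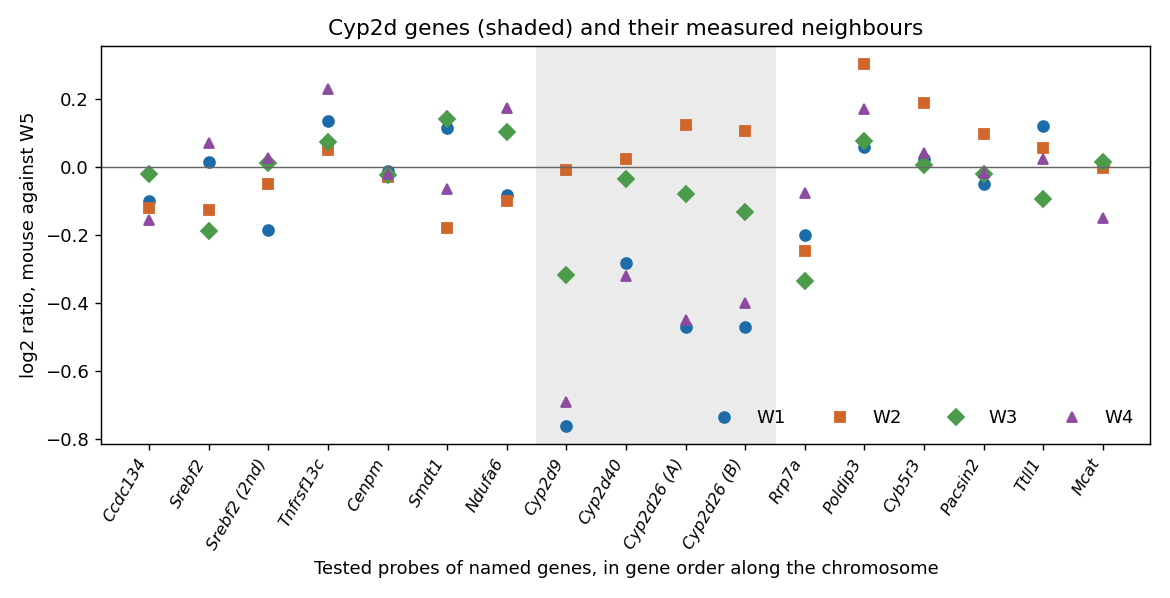
Fitted log2 ratio of each mouse against W5 (y axis) for tested probes of the Cyp2d genes (shaded) and of the nearest 6 named genes on each side, in gene order along the chromosome (x axis). W1 and W4 lie between -0.76 and -0.28 in the shaded probes, while the neighbours lie between -0.34 and 0.30 in all mice.

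Set against each other, with W5 cancelling, W1 to W4 differed in Cyp2d9 over a range of 0.75 (F test among W1 to W4, limma adjusted p = 0.00222). It was the only 1 of 17 P450 probes called in that test, against 0.700% of all probes, and 7 of 17 had an unadjusted p under 0.05, against 11.1%. Between pairs of mice, W2 lay 0.75 ± 0.11 from W1 (1.68-fold, adjusted p = 0.00292) and W4 lay -0.68 ± 0.11 from W2 (adjusted p = 0.00623). W4 and W1 were 0.07 ± 0.11 apart (adjusted p = 0.927). W3 did not differ from W1, W2 or W4 past the threshold (adjusted p = 0.191, 0.397 and 0.204). Without mouse W2 the range was 0.44 and the call was lost (adjusted p = 0.221). Cyp2d26 A was not called here (adjusted p = 0.0794) but passed with the replicate number as a block (adjusted p = 0.0370), which gave 2 calls.

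Counted over the 10 pairs of kidneys, 3 P450 probes separated W1 from W5 (0.795% of all probes did) and 5 separated W4 from W5 (2.01%). The pairs W2 with W1 and W4 with W2 had 1 each, Cyp2d9, against 0.185% and 0.274% of all probes. In the other 6 pairs limma called no P450 probe. The share of all probes called was 2.34% for W2 with W5, 0.592% for W3 with W5, 0.159% for W3 with W1, 0.235% for W4 with W1, 0.299% for W3 with W2 and 0.280% for W4 with W3. At an unadjusted p under 0.05 there were 2 of 17 P450 probes for W2 with W5, against 14.7% of all probes, and 3 for W3 with W5, against 11.2%. The unadjusted count was 5 for W3 with W1 (7.71% of all probes), 1 for W4 with W1 (7.94%), 3 for W3 with W2 (8.74%) and 5 for W4 with W3 (9.53%). With the replicate number as a block the 10 pair calls were kept and 2 were added, W2 with W1 in Cyp2d26 A (adjusted p = 0.0463) and W3 with W5 in Cyp2b10 (adjusted p = 0.0322). The test of W5 against its 4 littermates took mice as replicates and asked whether the 4 mouse means lie apart from W5 at 0. It left out the spread of W5 itself, so its p-values do not allow for that spread. It called 0 of 17 P450 probes, against 0.350% of all probes, and 7 of 17 had an unadjusted p under 0.05, against 13.7%. With a spread for W5 added it called 0 of 17, against 0.0191% of all probes. The fit over all 16 arrays with the mouse as a random block called 1, against 3.19% of all probes (502). At its estimated correlation of -0.00713 that fit in effect took the arrays as replicates. For Cyp2d9 the mean over the 4 mice was -0.44 ± 0.35 (SD, n = 4 mice; limma adjusted p = 0.118), with W2 at -0.01 and W1 at -0.76.

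Cyp26b1, which breaks down retinoic acid, was the other called gene. On probe 1787 its arrays lay at 0.88, 0.41, 0.27 and 0.56 in W4, at 0.42, 0.12, 0.48 and 0.14 in W2, at 0.07, 0.19, 0.03 and -0.08 in W3, and at -0.05, -0.05, -0.36 and -0.05 in W1. W4 was clear of W3 and W1 on every array, and W2 of W1. The fitted values were 0.53 ± 0.10 in W4, 0.29 ± 0.10 in W2, 0.05 in W3 and -0.13 in W1, a range of 0.66 or 1.58-fold (adjusted p = 0.00967). W4 differed from W5 (adjusted p = 0.00572), and W4 with W1 lay at the threshold (0.66 ± 0.13, adjusted p = 0.0502). The distance of W4 from W5 was 0.41 without W4 replicate 1 (adjusted p = 0.0622), and without mouse W4 the range was 0.42 and the 5-kidney call was lost (adjusted p = 0.174).

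The called genes most like Cyp26b1 were Bhmt, betaine-homocysteine methyltransferase (cosine 0.999), the MHC class II gene H2-Eb1 (0.972) and the neuropilin gene Nrp2 (0.969), then Pygm (0.951) and Rsad2 (0.949). Of 7 listed endothelial markers 3 were measured, and all 3 were called, beside 336 of 8005 named genes. Their cosines with Cyp26b1 were 0.782 (Egfl7), 0.927 (Esm1) and 0.949 (Emcn). The median of these markers was 0.59 in W4, 0.51 in W2, 0.04 in W3 and 0.06 in W1. Their part in the Cyp26b1 result was not tested. Rara, a retinoic acid receptor gene, was called at the edge (range 0.56, adjusted p = 0.0494), with W2 at -0.46.

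Among the other genes of family Cyp2, Cyp2a12, Cyp2b10 and Cyp2s1 did not pass. Cyp2b10, which xenobiotics induce through the receptor CAR, had the third widest range of the P450 probes, 0.65, and was not called (adjusted p = 0.121). It lay at 1.50, 0.32, 0.11 and 0.62 on the arrays of W3, and between -0.20 and 0.31 on all 12 arrays of the other mice. Its technical SD was 0.34, as high as or higher than that of 92.2% of all probes, and the 4 arrays of W3 spread over more than the range itself. Cyp2a12, a liver enzyme of steroid and bile acid hydroxylation, ranged over 0.33, from -0.28 ± 0.07 in W2 to 0.05 in W3 (adjusted p = 0.0798). Cyp2s1 had the narrowest range of all, 0.13 (adjusted p = 0.911).

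The 4 tested Cyp4b and Cyp4f genes, in a family of fatty acid and eicosanoid hydroxylases, were not called. Cyp4a14 of the same family was left out by the rule for members. The 4 genes had ranges of 0.19 for Cyp4b1, 0.20 for Cyp4f13, 0.21 for Cyp4f14 and 0.24 for Cyp4f18. Cyp4b1, known as an androgen-induced transcript of the mouse kidney, lay between -0.07 ± 0.08 in W3 and 0.12 ± 0.08 in W4 (adjusted p = 0.518). Cyp4f18, a leukotriene hydroxylase of neutrophils, lay at -0.20 ± 0.12 in W1 (adjusted p = 0.771). Cyp4f13 was on the negative side in all 4 mice, from -0.20 in W4 to -0.06 in W1, but did not pass (adjusted p = 0.382). Cyp3a13 had a range of 0.23 (adjusted p = 0.620) and Cyp1b1, the aryl hydrocarbon receptor target, one of 0.18 (adjusted p = 0.743).

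Steroid, oxysterol and bile acid enzymes were likewise uncalled. Cyp11a1, the mitochondrial side-chain cleavage enzyme that starts steroid synthesis, ranged over 0.30, from -0.26 ± 0.10 in W4 to 0.04 in W1 (adjusted p = 0.237). It is a marker of the adrenal gland, which lies beside the kidney. In the same test 0 of 6 measured adrenal markers were called, beside 336 of 8005 named genes. For so few genes that count is near this share, and whether adrenal tissue was present was not tested. The 6 include Star (range 0.28, adjusted p = 0.523) and Fdx1, which is also counted with the electron transfer genes below. Cyp7b1, an oxysterol and steroid hydroxylase, lay between -0.15 ± 0.08 in W4 and 0.03 in W1 (adjusted p = 0.463). Cyp27a1, the sterol 27-hydroxylase, had a range of 0.21 (adjusted p = 0.755).

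Over the 12 uncalled probes the ranges ran from 0.13 to 0.65, and over the 13 tested probes outside Cyp2d the median range was 0.21, against 0.24 over all 15715 probes. A dye term was called in 4 of 17 P450 probes, Cyp2d40, Cyp3a13, Cyp7b1 and Cyp2a12, against 12.5% of all probes. The median technical SD of the P450 probes was 0.185, and that of all probes 0.195.

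**Figure D3:**
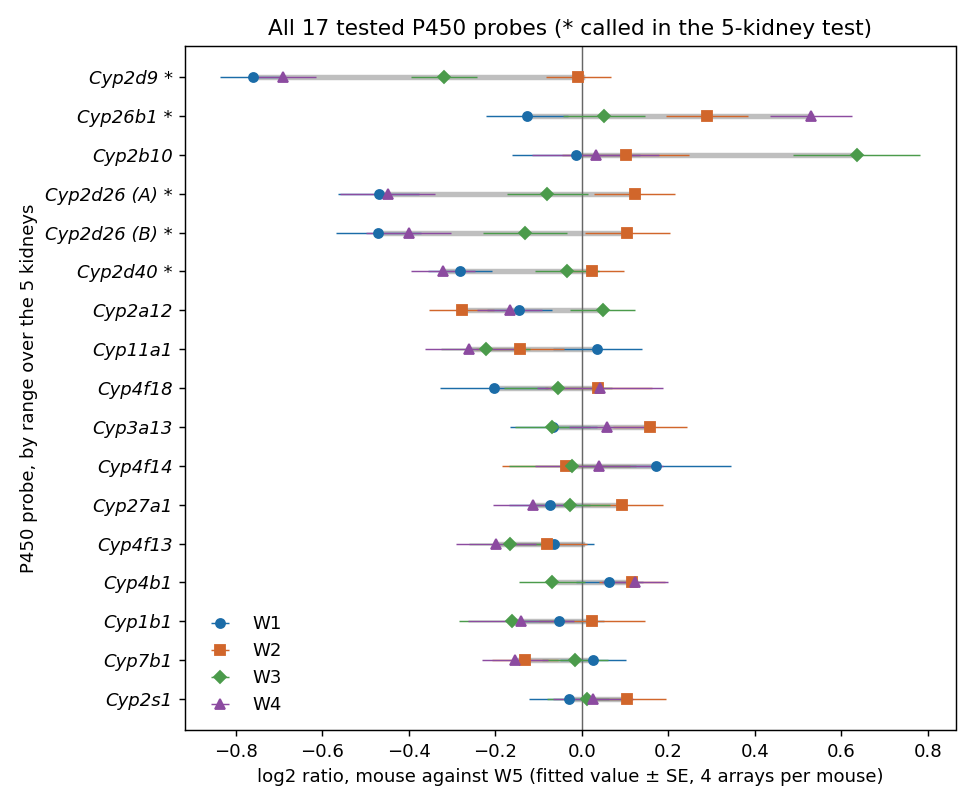
Fitted log2 ratio of each mouse against W5 (x axis, ± SE) for all 17 tested P450 probes (y axis), ordered by range, with the grey bar spanning the 5 kidneys and W5 at 0. Asterisks mark the 5 called probes. Ranges run from 0.13 (Cyp2s1) to 0.76 (Cyp2d9).

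The 8 genes outside the test had too few values, and no test is given for them in the main fit. Cyp2f2 had no value on any array. Cyp2a22 had 3 values, between 0.18 and 0.30, and Cyp2j9 had 7, between -0.47 and 0.10. Cyp17a1, a steroid 17-hydroxylase, had 11 values between -0.53 and 0.53. With at least 2 arrays per mouse admitted, Cyp21a1, the steroid 21-hydroxylase, had a range of 0.57 (adjusted p = 0.281), Cyp2c70 one of 0.24 (adjusted p = 0.878) and Cyp3a11 one of 0.13 (adjusted p = 0.995). Cyp2d12 is described above.

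Genes that work with P450 enzymes were read from lists, by counts called in the 5-kidney test, beside 336 of 8005 named genes. Electron transfer genes had 0 of 7 called with a median range of 0.11 (median of named genes 0.23), and the widest was Cyb5a, cytochrome b5, at 0.24 (adjusted p = 0.0898). Haem supply and breakdown had 2 of 9 called. Alas1, the first enzyme of haem synthesis, lay at -0.41 in W1, -0.43 in W4, -0.14 in W3 and -0.26 in W2 (adjusted p = 0.00368), with a cosine of 0.916 to Cyp2d9. Alad, the next enzyme, lay at -0.48 in W2 and at 0.46 to 0.54 in the other mice, with a cosine of -0.846 to Cyp2d9. Conjugating and other oxidising enzymes had 4 of 20 called. Gsta2, a glutathione transferase, had a range of 0.79, Ugt3a2, a sugar-conjugating enzyme, 0.57, Fmo1, a flavin monooxygenase, 0.31 and Gstt2 0.31, and each had its largest size in W2. Eicosanoid enzymes had 0 of 4 called.

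Receptors that regulate P450 genes had 4 of 16 called. Nr1h4, the bile acid receptor FXR, lay on the positive side, at 0.90 in W4, 0.57 in W3, 0.49 in W1 and 0.48 in W2. Nr3c1, the glucocorticoid receptor, lay there at 0.17 in W3 and 0.34 to 0.47 in the others, while Ppard was apart in W3 at 0.78. Of 8 androgen responsive genes 4 were called, of which Hsd11b1 and Cndp2 were positive in all mice and Odc1 and Slc22a7 on both sides. Kap, the kidney androgen-regulated protein gene, was not called (range 0.25, adjusted p = 0.0728).

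Markers of proximal tubule segments, where many renal P450 genes are expressed, also differed. Those of segments S1 and S2 had 3 of 6 called, with medians of 0.17 in both W1 and W2, 0.10 in W4 and -0.03 in W3. Those of segment S3 had 4 of 5 called, with medians of -0.10, -0.18, 0.02 and -0.36 in W1 to W4. Of the S3 markers, Gramd1b (0.934), Slc5a1 (0.725), Acy3 (0.706) and Slc22a7 (0.490) had positive cosines to Cyp2d9, and Slc17a3 (-0.911) a negative one. A positive cosine need not mean a like profile. Slc22a7 lay at -0.05 in W1 and -0.53 in W2, where Cyp2d9 lay at -0.76 and -0.01. Gramd1b lay at -0.31 in W1, -0.46 in W4, -0.21 in W3 and -0.18 in W2. Of the S1 and S2 markers, Aqp1 (0.924) and Cubn (0.257) had positive cosines to Cyp2d9. Slc7a8 (-0.819), Ass1 (-0.662), Slc7a7 (-0.659) and Lrp2 (-0.612) had negative ones. Liver markers had 1 of 5 called (Ttr), adipose markers 5 of 6 and leukocyte markers 0 of 4, beside 336 of 8005 named genes. Every adipose median was negative, at -0.48 (W3), -0.35 (W2) and -0.23 (both W1 and W4). All 6 adipose markers had positive cosines to Cyp2d9, from 0.172 (Lpl) to 0.839 (Cidec). Their medians were farthest from W5 for mice W3 and W2, whose Cyp2d9 values were -0.32 and -0.01. The part of the tubule, liver, adipose and leukocyte markers in the P450 results was not tested.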

How the data were processed

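Kidney RNA was hybridised to 2-colour arrays, scanned with a GenePix 4000A and quantified in GenePix Pro 3.0, per the labels. The authors deposited a log2 ratio per probe and array. Per the labels, they subtracted background from mean intensities and normalised so that ratios had a median of 1. That the deposited logs are log2 was found from the data: 1.56% to 5.01% of an array's values matched log2 ratios of whole numbers to 12 (tolerance 2e-06), against at most 0.0345% for natural logs and 0.126% for log10. For the numerator, the dye of each channel and any filter that left cells empty, nothing is given in the sources used here. Signs were turned on arrays with W5 in channel 1.

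The limma package (3.58.1, R 4.3.3) fitted 4 mouse coefficients and a gene-specific dye term to 15715 probes with values on at least 3 of 4 arrays per mouse. An array held 16209 to 18406 values before this filter. Moderated F tests asked about all 5 kidneys and about W1 to W4, and two-sided moderated tests about the 10 pairs, the dye term and, on mouse means, W5. Benjamini-Hochberg adjustment ran over all probes, with calls at 0.05. The number of arrays and animals limits the precision.

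Probe symbols came from the platform annotation (11723 probes with 1 symbol, 806 with several, 7676 unnamed here), and all 24 P450 symbols matched a GRCm38.p6 gene table. Promoters were RefSeq windows, aligned globally, with identity taken over aligned bases without gaps. Genes described with every array are those called. The 6 uncalled ones of lowest p, the genes of called subfamilies and the widest of each family have their range and p. Members and lists were chosen with earlier results of these data known.

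Same-numbered arrays of different mice share a channel orientation. Their deviations from the mouse means correlated at 0.105 to 0.384 in all 24 pairs, and at -0.265 to 0.188 once the dye term was taken out. Arrays of other numbers in the same orientation gave 0.0161 to 0.351 and -0.298 to 0.0422. The fit with the replicate number as a block is given for the 5-kidney, among-mice and pair calls it changed. Other alternatives were no dye term, array weights, common spread, other filters, centring, a robust prior, and arrays or mice left out.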

Additional observations from a re-analysis of the deposited data

Results flagged for a closer look

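In Cyp2d9 the distance from W5 differed between mice in a direct test. W2 lay 0.75 from W1 and W4 lay -0.68 from W2, and the range among W1 to W4 was 0.75 (limma adjusted p = 0.00292, 0.00623 and 0.00222).

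A single array stood apart from the other 3 of its mouse in 3 of 61 sets of 4 arrays, where chance gives about 1 in 20. Array W1.3 had -0.36 for Cyp26b1, against -0.0549 to -0.0450 on the others, and array W4.1 had -0.00 (-0.0009) for Cyp2d40, against -0.46 to -0.40. Array W2.1 had 0.43 for Cyp4f18, against -0.12 to -0.04.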

How the results depend on the processing

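The count of P450 probes called in the 5-kidney test was 5 and stayed within 1.5 times of that in 28 of 30 alternative settings. It ran from 2 to 6 with arrays or mice left out, with 2 without mouse W1 (Cyp2d40 and both Cyp2d26 probes lost) and 3 without mouse W4 (Cyp2d40 and Cyp26b1 lost). Cyp2d9 kept its 5-kidney call in all 30 settings (adjusted p from 1.4e-07 to 0.000961, range 0.69 to 0.84). Among W1 to W4 the count was 1, against 3 with array weights and 2 each with the replicate block, with a common spread and with values on all 16 arrays. With arrays or mice left out it ran from 0 (without mouse W2) to 3 (without W4 replicate 2). The replicate block gave 12 pair calls in place of 10, with the 10 kept and the 2 added ones named above, and left the 5-kidney count at 5. Over the pairs of kidneys the count was 10, against 5 without the dye term and 6 to 13 with an array left out. Across all 26 alternative settings for the pairs it ran from 5 to 15. It was 6 without W1 replicate 1, 3 or 4. The dye term was called in 4 probes, and in 2 to 5 with an array left out. W5 against its littermates had 0 (55 of all probes), and 0 with a spread for W5 added (3 of all probes). It had 1 with the mouse as a random block (502 of all probes), which at a correlation of -0.00713 in effect took arrays as replicates. Balancing the 2 orientations in the mouse means, chosen after seeing the data, also gave 0. No value reversed. The cause of these changes was not tested, beyond the fewer samples of settings that leave some out.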

Other observations

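Probes listed with P450 genes under several symbols name no single gene and stand outside the comparisons above. The one listed with Cyp2a4 and Cyp2a5, steroid and coumarin hydroxylases of mouse liver and kidney, lay at -0.29 in W1, -0.17 in W4, -0.09 in W2 and 0.13 in W3, a range of 0.42 that was not called (limma adjusted p = 0.0708). Its cosine to Cyp2d9 was 0.738. The probe listed with Cyp4v3 and the kallikrein gene Klkb1 had a range of 0.36 (adjusted p = 0.745).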
